A study of Homo sapiens with 4 samples.

Results

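The transforming growth factor beta (TGF-beta) and activin pathway was followed through 10 of its genes: the ligand genes TGFB1, TGFB2, INHBA and INHBB, the receptor genes TGFBR1 and TGFBR2, the signal transducers SMAD2, SMAD3 and SMAD4, and the inhibitor SMAD7. They were taken by symbol, and all 10 were found on every plate among the 19577 genes listed. The cells were MCF10A_H2B_GFP, an untransformed human breast epithelial line that carries a nuclear green fluorescent reporter. A circular patch was seeded with 10000 cells on fibronectin and grown for 6 days, in both experiments, in the same medium with equine serum, EGF, hydrocortisone, cholera toxin and insulin. Cells of 1 patch were phototagged by distance from its edge and sorted singly into 1 plate of 384 wells, and transcripts were counted by molecular identifiers (UMIs). In the low-resolution experiment the patch was divided into bands of 1000 to 1500 μm, and in the high-resolution experiment the outer bands were 250 μm wide. Each experiment had 2 plates, and no agent, genotype or time point differed between them. The band that each well came from was not analysed here, so any difference between the experiments cannot be told apart from a difference in which cells of the patch were sorted.

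TGF-beta ligands and activins are secreted dimers that bind a type II receptor, which recruits and phosphorylates a type I receptor. The active type I receptor phosphorylates SMAD2 and SMAD3, which join SMAD4 and regulate genes in the nucleus, while SMAD7 is a product of the pathway that blocks the receptors. INHBA and INHBB encode the beta subunits of activin A and activin B, and in breast epithelium TGF-beta is a classic inducer of the epithelial-to-mesenchymal transition (EMT), the loss of epithelial junctions and gain of migratory features.

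After cells with 2000 to 9000 detected genes and under 40% mitochondrial counts were kept, 1146 of 1536 wells remained, with 271 to 293 cells per plate, 562 at low and 584 at high resolution. These are fewer cells than the study states for the same filter, and the cause was not tested. The median total per cell was between 30520 and 41248 by plate, in UMI counts corrected for repeated use of a UMI, spike-ins included. All 384 well numbers occur on every plate by design, and 0 cell profiles were identical. The 8 breast epithelial markers (EPCAM, CDH1, 5 keratins and TP63) were all detected and summed to between 3200 and 3878 CPM (UMIs per 1000000 UMIs of the plate), against at most 12.9 for 4 fibroblast markers, 21.4 for 3 endothelial markers and 8.72 for 3 immune markers. Low-resolution plate 1 was sequenced on another flow cell than the other 3 plates, and the calls that changed without it are given beside the results.

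The levels of the genes spanned from a few to about 200 CPM. One UMI was read from the 3′ end of each transcript, so levels of different genes are compared without division by length. TGFBR2, the type II receptor for TGF-beta, was the highest on each plate, at 178.6 and 202.1 CPM on the low-resolution plates and 168.4 on both high-resolution plates, and was detected in at least 95.9% of cells. Its partner TGFBR1 lay between 22.8 and 27.6 CPM. Of the signal transducers, SMAD2 measured 65.2, 61.4, 59.0 and 56.4 CPM on low-resolution plates 1 and 2 and high-resolution plates 1 and 2, SMAD3 measured 58.1, 52.4, 34.7 and 44.9, and SMAD4, their shared partner, measured 21.0, 15.4, 18.8 and 18.8. The TGF-beta ligand genes were lower, with TGFB2 between 13.8 and 16.0 and TGFB1 at 6.77, 7.53, 9.71 and 10.9 CPM. SMAD7 had the lowest level, 3.23, 3.87, 4.55 and 5.62 CPM, and 32 to 76 UMIs in total per plate.

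By the mean over the 4 plates the order was TGFBR2 (179), INHBA (86.9), SMAD2 (60.5), SMAD3 (47.6), TGFBR1 (25.8), SMAD4 (18.5), INHBB (17.9), TGFB2 (14.6), TGFB1 (8.74) and SMAD7 (4.32). The neighbours INHBA and SMAD2, SMAD2 and SMAD3, SMAD4 and INHBB, and INHBB and TGFB2 overlapped in their ranges over plates. Of these pairs, SMAD2 exceeded SMAD3 on all 4 plates, while in each of the other pairs the order held on 2 of 4. TGFBR2 ranked at the 96.5th percentile of the 19290 genes with a count, INHBA at the 91.7th and SMAD7 at the 49.4th.

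**Figure D1:**
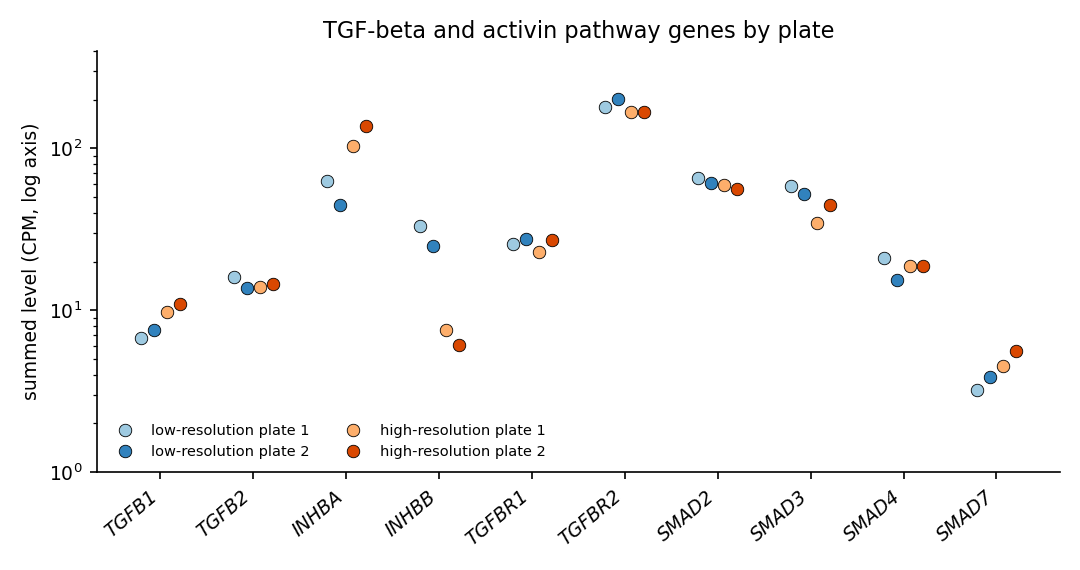
Summed level of the 10 pathway genes on each of the 4 plates, in CPM on a log axis, with 1 point per plate. INHBA and INHBB are the genes whose 2 experiments lie farthest apart, in opposite directions: INHBA is 44.6 and 63.1 at low resolution against 103.6 and 136.3 at high resolution, and INHBB is 24.9 and 33.1 against 6.13 and 7.53.

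The activin subunit genes differed most between the experiments. INHBA, the activin A subunit, measured 63.1 and 44.6 CPM on the low-resolution plates and 103.6 and 136.3 on the high-resolution plates. INHBB, the activin B subunit, measured 33.1 and 24.9 at low resolution and 7.53 and 6.13 at high resolution. The groups did not overlap for either gene, and both low-resolution plates were low in INHBA and high in INHBB. The mean of INHBA was 53.8 ± 13.0 at low and 119.98 ± 23.1 at high resolution, and that of INHBB was 28.98 ± 5.79 at low and 6.83 ± 0.985 at high resolution (CPM, SD, n = 2 plates each).

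In edgeR's quasi-likelihood test on counts summed by plate, with Benjamini-Hochberg adjustment over 12437 genes, INHBA rose from low to high resolution by 1.197 ± 0.160 (log2 fold change ± SE, adjusted p = 0.000789) and INHBB fell, with a log2 fold change of -2.05 ± 0.19 (adjusted p = 0.000125). These were 2 of the 10 pathway genes past the threshold of 0.05, where 12.4% of all genes tested passed. On the plates of the single shared flow cell, that is without low-resolution plate 1, the log2 fold changes were 1.43 for INHBA and -1.87 for INHBB, and both passed. The 8 other pathway genes did not pass. Among them SMAD3 had a log2 fold change of -0.44 ± 0.14 (adjusted p = 0.0617), TGFB1 of 0.56 ± 0.21 (adjusted p = 0.0936) and SMAD7 of 0.55 ± 0.27 (adjusted p = 0.204). SMAD3 passed when high-resolution plate 2 was left out (-0.62, adjusted p = 0.0217) and without the filter on low counts (-0.42, adjusted p = 0.0354). The ranges of the 2 experiments were apart for 7 of the 10 genes, while this held for 57.6% of all genes tested. With 2 plates in a group, the spread behind each p-value was drawn mostly from other genes (10.5 prior against 2 residual degrees of freedom). The p-values cover these few patches only.

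The ratio of INHBA to INHBB counts was 1.91 and 1.79 on the low-resolution plates and 13.8 and 22.2 on the high-resolution plates. On the log2 scale it was 0.93, 0.84, 3.78 and 4.47, so the mean at high resolution was higher by 3.24, against SDs of 0.062 at low and 0.489 at high resolution. The exact two-sided permutation test gave p = 0.333, the smallest value that 2 plates against 2 can give. Leaving out each plate in turn gave differences of 2.90 to 3.59.

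Shares of cells followed the levels. INHBA was detected in 43.0% (exact 95% binomial interval 37.2 to 48.9) and 45.8% (39.7 to 51.9) of cells on the low-resolution plates and in 71.8% (66.3 to 76.9) and 77.1% (71.9 to 81.8) on the high-resolution plates. After each cell was thinned to 10000 UMIs, which leaves out 2 to 7 shallower cells per plate, these shares were 27.2%, 25.7%, 47.5% and 50.9%. INHBB was detected in 40.2% (34.5 to 46.1), 42.4% (36.5 to 48.6), 18.6% (14.3 to 23.5) and 16.7% (12.6 to 21.5) of cells, and in 19.5%, 21.3%, 8.10% and 7.56% after thinning. The plates hold no cell type known to lack either gene, so no background share was available, and the intervals cover counting error only.

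INHBA and INHBB were not kept in separate cells. In thinned cells both were detected together in 5.92%, 4.48%, 2.82% and 3.44% of cells on low-resolution plates 1 and 2 and high-resolution plates 1 and 2, while the product of their separate shares was 5.30%, 5.48%, 3.85% and 3.85%. INHBA was also unevenly spread among cells. A single cell held up to 37, 19, 32 and 51 INHBA UMIs on the 4 plates, and the variance of its thinned counts was 2.83, 1.82, 2.53 and 2.92 times the mean. The 95th percentile of that ratio over genes of similar level (0.2 to 2 UMIs per thinned cell) was between 1.75 and 1.88, and INHBA exceeded its plate's percentile on all plates except low-resolution plate 2.

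The stretches of genome before a listed start of these 2 genes, shown because INHBA and INHBB moved in opposite directions, differ in composition. They are 250 bases each (GRCh38.p14), printed 5′ to 3′. INHBA is at chr7:41703091-41703340 on the minus strand and INHBB at chr2:120345886-120346135 on the plus strand. The INHBB stretch ends where the RefSeq gene begins. The RefSeq span of INHBA is chr7:41685114-41705406, so its stretch lies inside the gene and not upstream of its 5′ end. Capitals mark, for INHBA, the CCAAT boxes (CCAAT) and the TATA box (TATAAA) and, for INHBB, the GC boxes (GGGCGG, or CCGCCC on the other strand, overlaps counted).
INHBA: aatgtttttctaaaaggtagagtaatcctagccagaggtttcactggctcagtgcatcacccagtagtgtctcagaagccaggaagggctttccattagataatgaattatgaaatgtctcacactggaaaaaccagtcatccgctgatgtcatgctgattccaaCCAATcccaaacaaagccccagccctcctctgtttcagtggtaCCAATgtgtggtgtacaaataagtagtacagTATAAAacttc
INHBB: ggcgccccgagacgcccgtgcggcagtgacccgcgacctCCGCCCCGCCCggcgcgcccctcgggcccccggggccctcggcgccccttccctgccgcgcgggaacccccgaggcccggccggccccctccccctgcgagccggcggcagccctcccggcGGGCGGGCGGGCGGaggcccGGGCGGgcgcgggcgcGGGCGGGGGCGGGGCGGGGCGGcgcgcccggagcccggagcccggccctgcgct

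The INHBA stretch was 42.8% G and C with 1 CpG, 2 CCAAT boxes and 1 TATA box. The INHBB stretch was 89.6% G and C with 46 CpGs and 10 GC boxes. Over 27305 RefSeq promoters of the same length the median was 58.0% G and C and 11 CpGs. A GC box occurred in 42.3% of them, a CCAAT box in 33.0% and a TATA box in 11.1%, on either strand. Neither stretch held the letters of an AP-1 site (TGANTCA, in 6.60% of promoters) or of a cAMP response element (TGACGTCA, in 1.77%). The last 18 bases of the INHBA stretch lie in an exon of INHBA as GENCODE lists it. The letters marked as a TATA box, at position -11 from the start, fall within those 18 bases. A match of letters is not a bound site.

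To relate the pathway to EMT, each cell was given an EMT score, the gene set variation (GSVA) score of a mesenchymal list minus that of an epithelial list. None of the 10 pathway genes is in either list, so the score did not use them. On each plate the cells were ranked by EMT score, and counts were summed over 3 groups of equal size, the lowest, middle and highest tertile. The tertiles are ranges of a continuous score and not cell types, with 8 to 27 cells lying within 0.05 of each limit. The markers CDH1, EPCAM, VIM and FN1 are part of the score, so their levels are a description. E-cadherin (CDH1) lay between 90.6 and 128.4 CPM in the lowest tertiles and between 2.15 and 8.12 in the highest, and vimentin (VIM) between 3.24 and 7.37 in the lowest and between 207.0 and 421.0 in the highest.

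INHBB fell steeply with the EMT score. From the lowest to the highest tertile it went from 69.1 to 2.82 CPM on low-resolution plate 1, from 47.6 to 2.81 on low-resolution plate 2, from 15.8 to 1.08 on high-resolution plate 1 and from 14.3 to 0.446 on high-resolution plate 2. The highest tertiles held 9, 9, 4 and 2 INHBB UMIs, so the folds of the lowest over the highest tertile, 24.9, 17.3, 15.1 and 32.7, have wide exact 95% counting intervals of 12.9 to 55.0, 8.89 to 38.4, 5.62 to 56.8 and 8.69 to 276. INHBB was lower in the highest tertile on all 4 plates.

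SMAD3 rose with the EMT score. Between the lowest and the highest tertile it went from 29.2 to 87.9 and from 27.0 to 85.6 CPM on the low-resolution plates, and from 19.9 to 46.3 and from 21.8 to 64.7 on the high-resolution plates. SMAD2, which acts beside SMAD3, went from 70.7 to 64.0, from 60.6 to 63.1, from 58.5 to 61.9 and from 49.6 to 62.9. The SMAD3 ranges of the 2 tertiles did not overlap over the 4 plates, and those of SMAD2 did.

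TGFB1 was also higher in the highest tertile on each plate, at 4.91 against 10.98, 4.87 against 12.5, 4.35 against 17.2 and 2.96 against 21.0 CPM. SMAD7, which shuts the receptors off, was at 1.09 against 5.96, 2.16 against 6.55, 1.38 against 8.61 and 3.18 against 7.58, resting on as few as 4 UMIs in a lowest tertile. TGFB2 was at 16.1 against 18.5, 12.2 against 18.7, 10.1 against 22.3 and 12.1 against 16.3. INHBA measured 55.7 against 64.1 and 28.7 against 52.5 at low resolution and 55.5 against 139.2 and 83.2 against 194.4 at high resolution, so all plates moved up, with overlapping tertiles between plates.

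With the plate as a term, edgeR's quasi-likelihood test found 6 of the 10 genes changed between the highest and lowest tertile, against 41.2% of the 10703 genes tested, so a gene past this threshold was common. TGFB1 rose by 1.78 ± 0.26 (log2 fold change ± SE, adjusted p = 0.00018), SMAD7 by 1.78 ± 0.30 (adjusted p = 0.000585), SMAD3 by 1.43 ± 0.11 (adjusted p = 9.84e-07), INHBA by 0.86 ± 0.16 (adjusted p = 0.00108) and TGFB2 by 0.51 ± 0.17 (adjusted p = 0.0311). INHBB fell, with a log2 fold change of -4.42 ± 0.20 (adjusted p = 1.73e-08). The receptors TGFBR1 (0.28 ± 0.15, adjusted p = 0.161) and TGFBR2 (0.06 ± 0.08, adjusted p = 0.604) did not pass, nor did SMAD2 (0.00 ± 0.10, adjusted p = 0.996) and SMAD4 (0.27 ± 0.13, adjusted p = 0.119). The median log2 fold change was 0.40 over the 10 genes and 0.00 over all genes tested. The call of TGFB2 was lost without high-resolution plate 1 (0.33, adjusted p = 0.173) and without low-resolution plate 2 (0.50, adjusted p = 0.0825). TGFBR1 passed without low-resolution plate 2 (0.47, adjusted p = 0.0262). TGFB2 also missed the threshold under DESeq2 (0.53, adjusted p = 0.122) and in cells thinned to 10000 UMIs (0.70, adjusted p = 0.0640 by edgeR), where 4 of 9 genes passed and SMAD7 was too low to be tested. Without low-resolution plate 1 all 6 calls held, with log2 fold changes of 2.00 for TGFB1, 1.68 for SMAD7, 1.42 for SMAD3, 1.10 for INHBA, 0.67 for TGFB2 and -4.24 for INHBB.

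The tertiles differed in other respects as well. The mean mitochondrial share was 31.2% to 32.3% in the lowest and 26.0% to 28.96% in the highest tertiles, and the mean G2/M score was higher in the highest tertile on every plate. Without the limit on mitochondrial share 7 of the 10 genes passed, SMAD4 being added. With the S and G2/M scores held fixed, the mean correlation with the EMT score was -0.47 for INHBB and 0.36 for SMAD3, close to the values below. The part of RNA quality in these results was not tested further.

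**Figure D2:**
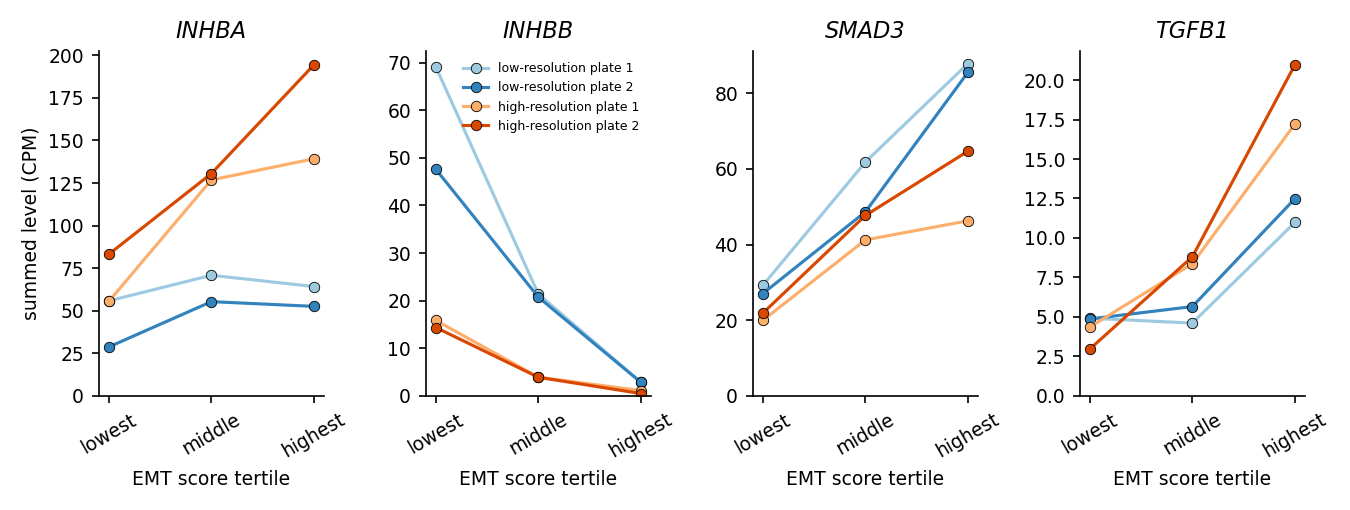
Summed level of INHBA, INHBB, SMAD3 and TGFB1 in the lowest, middle and highest tertile of cells by EMT score, in CPM on linear axes from 0, with 1 line per plate. INHBB falls on all 4 plates, SMAD3 and TGFB1 end higher than they start on all 4, and INHBA ends at 52.5 and 64.1 on the low-resolution plates against 139.2 and 194.4 on the high-resolution plates.

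The EMT score and the experiment could be crossed for the activin genes. Within the lowest tertile INHBA differed between high and low resolution by 0.75 ± 0.24 (log2 fold change ± SE), with an adjusted p of 0.0522 by edgeR, where 11.8% of genes passed. Within the middle tertile it rose by 1.06 ± 0.15 (adjusted p = 0.000675, 9.05% of genes passed) and within the highest tertile by 1.53 ± 0.17 (adjusted p = 0.000399, 5.14% of genes passed). INHBB was lower at high resolution within the lowest tertile (-1.92 ± 0.20, adjusted p = 6.59e-05) and the middle tertile (-2.41 ± 0.28, adjusted p = 0.000159). It was too low to be tested in the highest tertile. SMAD3 was lower at high resolution within the highest tertile (-0.63 ± 0.17, adjusted p = 0.0492), and the other genes of the 10 did not pass within a tertile. In all 1 of 9 genes tested passed in the lowest, 2 of 10 in the middle and 2 of 9 in the highest tertile. So the INHBA difference passed in 2 of the 3 tertiles, and the INHBB difference in both that could be tested. The tertiles were set within each plate, and a tertile of one experiment did not always cover the same range of EMT as that of the other. In the middle tertiles VIM was at 15.1 and 5.96 CPM on the low-resolution plates and at 104.5 and 49.7 on the high-resolution plates. CDH1 was at 78.3 and 80.4 against 30.2 and 39.1 there, so the middle tertiles were not matched in EMT state. In the highest tertiles CDH1 was at 7.84 and 8.12 at low against 2.15 and 2.45 at high resolution. In the lowest tertiles FN1 was at 36.6 and 44.1 against 61.2 and 157.8. EPCAM was also higher at high resolution there, at 164.2 and 155.6 against 201.3 and 190.2. The lowest and highest tertiles can therefore not be taken as matched either.

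The log2 ratio of INHBA to INHBB rose with the EMT score on each plate. In the lowest tertile it was -0.31 and -0.73 on the low-resolution plates, where INHBB counts exceeded those of INHBA, and 1.81 and 2.54 on the high-resolution plates. The middle tertile had 1.73, 1.42, 5.03 and 5.08. In the highest tertile it was 4.51, 4.22, 7.02 and 8.77, the last resting on 2 INHBB UMIs.

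Whether the change between tertiles itself differed between the experiments was tested by an interaction term, which 3.06% of 10703 genes passed. INHBA was the 1 pathway gene of the 10 that passed. Its log2 change from the lowest to the highest tertile was 0.20 and 0.87 on the low-resolution plates and 1.33 and 1.23 on the high-resolution plates, a difference of 0.79 ± 0.19 (edgeR, adjusted p = 0.0273). Without low-resolution plate 1 the difference was 0.41 (adjusted p = 0.408), so this call rests on that plate. INHBB did not pass, with an interaction of 0.07 (edgeR, adjusted p = 0.995). Its log2 change between tertiles was -4.61 and -4.08 on the low-resolution plates and -3.88 and -5.01 on the high-resolution plates. The highest tertiles held as few as 2 INHBB UMIs, so a small difference between the experiments could not be told.

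**Figure D3:**
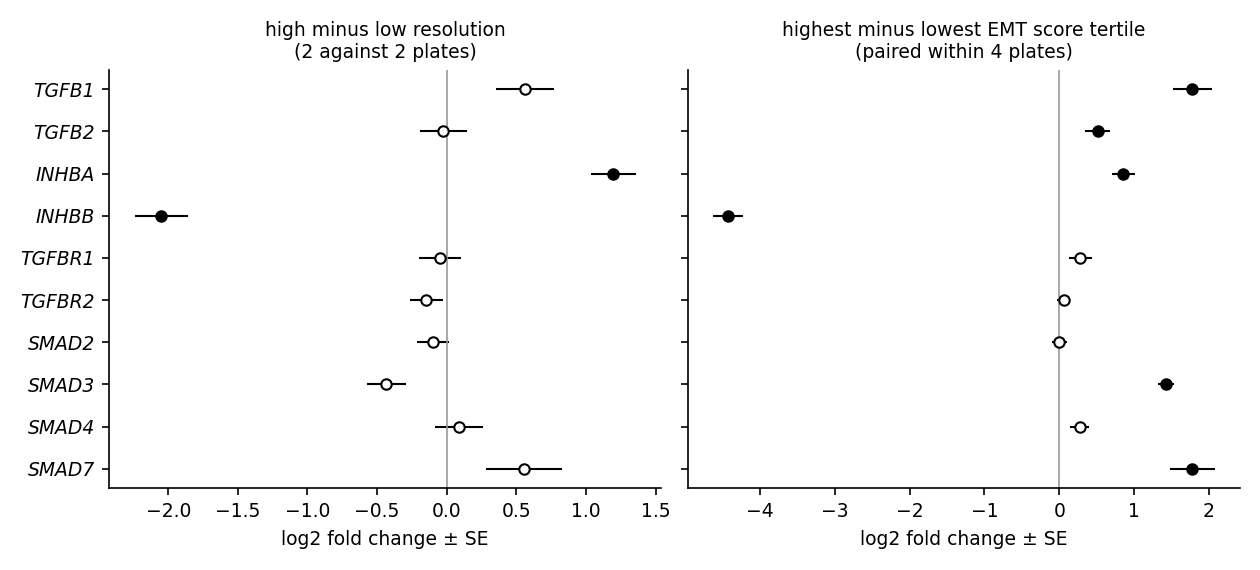
Log2 fold change ± SE of the 10 genes from edgeR's quasi-likelihood fits, for high minus low resolution (left) and for the highest minus the lowest EMT score tertile (right); filled points passed an adjusted p of 0.05. INHBA (1.197) and INHBB (-2.05) are filled on the left, and INHBB (-4.42) stands apart from the 5 genes that rose on the right.

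Across single cells the correlation with the EMT score was computed on each plate from log-normalised values, and is a description over 271 to 293 cells of 1 library each that share depth and normalisation. INHBB had the lowest Spearman rho, -0.58, -0.56, -0.41 and -0.42 on low-resolution plates 1 and 2 and high-resolution plates 1 and 2. SMAD3 had the highest, 0.44, 0.38, 0.29 and 0.43. TGFB1 had a mean of 0.27 ± 0.13 (SD, n = 4 plates) and SMAD7 of 0.19 ± 0.062. These were the genes farthest from 0 with the same sign on every plate.

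INHBA did not keep its sign. Its rho was -0.12 and 0.091 on the low-resolution plates and 0.29 on both high-resolution plates. TGFB2 (mean 0.13), TGFBR2 (0.10), SMAD4 (0.074), TGFBR1 (0.050) and SMAD2 (0.021) were weaker. The mean rho reached 0.3 in size for INHBB and SMAD3, 2 of the 10 genes, and for 8.64% of the 8006 genes that no plate detected in fewer than 20% of its cells. Set among those genes, INHBB would lie at the 1.25th percentile, SMAD3 at the 97.6th and TGFB1 at the 94.0th. Without low-resolution plate 1 the mean rho was -0.46 for INHBB, 0.36 for SMAD3, 0.32 for TGFB1 and 0.22 for INHBA. Thinned to 10000 UMIs per cell, the mean rho of INHBB was -0.36 and that of SMAD3 0.25.

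For INHBB and SMAD3 the single EMT markers gave the same picture with smaller values. INHBB had a mean rho of 0.40 with CDH1 and 0.35 with EPCAM, an epithelial adhesion molecule, and of -0.29 with VIM and -0.35 with fibronectin (FN1). SMAD3 had -0.31 with both CDH1 and EPCAM, 0.30 with VIM and 0.31 with FN1. INHBA had 0.18 with VIM, 0.085 with FN1, 0.023 with EPCAM and -0.036 with CDH1, each with an SD of at least 0.11 over plates. TGFB1 had 0.28 with FN1 and -0.22 with CDH1. The markers themselves, each left out of the score, had -0.73 (CDH1), -0.72 (EPCAM), 0.59 (VIM) and 0.74 (FN1).

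**Figure D4:**
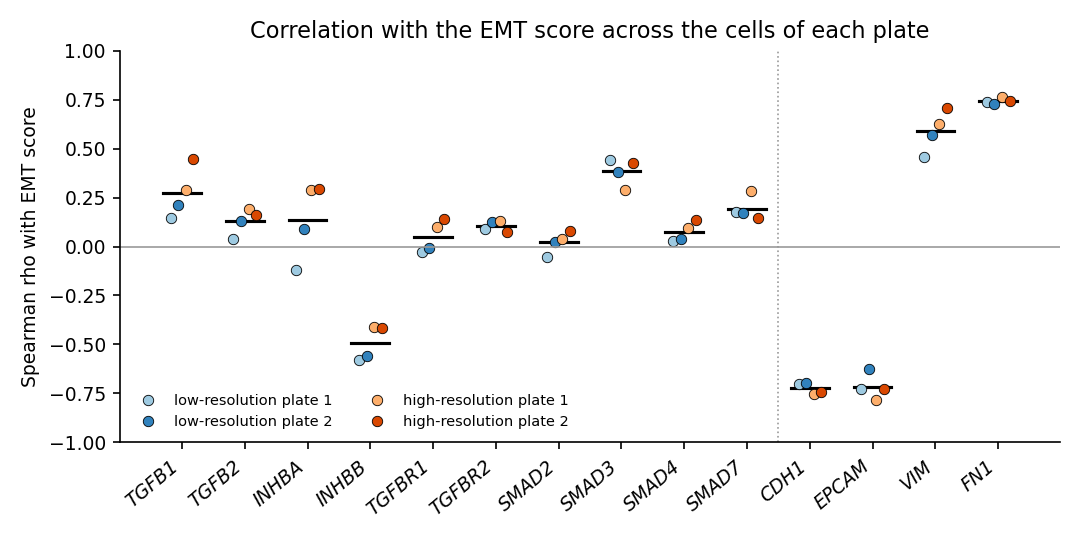
Spearman rho with the EMT score across the cells of each plate (points) and its mean over the 4 plates (bars) for the 10 pathway genes and, right of the dotted line, 4 EMT markers that were left out of the score for their own value. INHBB lies between -0.58 and -0.41, SMAD3 between 0.29 and 0.44, and INHBA on both sides of 0.

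The genes were only weakly co-expressed in single cells. Of 45 pairs, 0 had a rho of 0.3 or more in size with the same sign on every plate, and 0 reached 0.2. The highest mean was TGFB1 with SMAD3 (0.16, range 0.12 to 0.21 over plates), followed by TGFB2 with SMAD3 (0.15) and TGFB2 with INHBA (0.14). The lowest was INHBB with SMAD3 (-0.20, range -0.27 to -0.13). With the EMT score held fixed this pair came to -0.013 and TGFB1 with SMAD3 to 0.059. INHBA with INHBB had 0.11, -0.062, -0.11 and -0.20 on the 4 plates. A positive sign on every plate was seen for 16 pairs and a negative one for 4; in thinned cells these were 6 and 2. With low counts per cell such values cannot show whether the genes are used together.

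The genes most like each pathway gene, by mean rho over the 4 plates among 8006 genes, were sought for the 8 that met this limit of detection. Among the genes nearest to INHBA were HMGA1, a chromatin protein (mean rho 0.39), and FSCN1, which bundles actin (0.39). SMAD3 was nearest to EMP3 (0.38), ANXA5 (0.37) and NT5E (0.36), and TGFB1 to ITGB5, an integrin subunit (0.32), SERPINE2 (0.32) and NT5E (0.30). TGFB2 was nearest to THBS1 (0.21), which encodes thrombospondin, an activator of latent TGF-beta, and TGFBR2 to TIMP2 (0.21). For SMAD2, SMAD4 and TGFBR1 the nearest gene had 0.15 or less, and INHBB and SMAD7 were detected too rarely.

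The wider pathway was read from a list of 34 other genes, of which 32 had a row, and from 15 target genes of TGF-beta, of which 14 had one. SKIL and LTBP2 are on both lists. Both lists were chosen with earlier results of these data known, so the counts of their genes are a description and no independent test of the pathway. The target list gives no direction in which TGF-beta moves each gene, so a rise is not read as pathway output. From low to high resolution 9 of the 14 target genes tested rose and 0 fell, where 6.26% of all genes rose and 6.18% fell, with a median log2 fold change of 0.93 against -0.02 over all genes. TGM2, which encodes a transglutaminase that crosslinks proteins, measured 69.5, 80.8, 184.1 and 174.8 CPM and rose by 1.29 ± 0.13 (edgeR, adjusted p = 0.000141). Others that rose were TGFBI (1.22), JUNB (1.17), CCN2 (1.11, listed as CTGF), BHLHE40 (1.09), LTBP2 (1.01), ID1 (0.98), COL4A1 (0.88) and CDKN1A (0.38). PMEPA1, a target that feeds back on the receptors, measured 333.1, 312.4, 372.8 and 370.3 CPM and did not pass (0.24 ± 0.10, adjusted p = 0.148). Without low-resolution plate 1, 8 target genes rose, CDKN1A being lost (0.36, adjusted p = 0.126).

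Of the other pathway genes, 5 rose and 5 fell between low and high resolution among 29 tested, with a median of -0.05. FSTL3, which binds and neutralises activin, measured 67.7, 65.0, 110.3 and 96.6 CPM and rose by 0.68 ± 0.12 (edgeR, adjusted p = 0.00383). THBS1 (0.57) and LTBP1 (0.66), which bind latent TGF-beta, LTBP2 (1.01), a matrix protein of the LTBP family, and the co-receptor ENG (0.67) also rose. The co-receptor TGFBR3 (-0.62), the activin receptor ACVR2A (-0.72), SMAD1 (-0.70), and the integrin subunits ITGB6 (-0.83) and ITGB8 (-0.56), whose integrins activate latent TGF-beta, were lower. LTBP1 was at -0.57 within the lowest EMT score tertile, described above, and ACVR2A at 0.076 within the highest, and neither passed there. Without low-resolution plate 1 the calls of TGFBR3 (-0.54, adjusted p = 0.0594), ENG (0.48, 0.144), ACVR2A (-0.72, 0.105), LTBP1 (0.49, 0.131) and ITGB8 (-0.44, 0.0524) were lost, leaving 3 genes that rose and 2 that fell. TGFB3 stayed at or under 0.694 CPM, and FST, which also binds activin, at 2.58 to 5.69.

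Between EMT score tertiles 9 of 14 target genes rose and 2 fell, where 20.3% of all genes rose and 20.9% fell, with a median of 0.74. TGM2 rose by 3.38 ± 0.22 (edgeR, adjusted p = 2.91e-07), followed by COL4A1 (2.47), LTBP2 (2.41), TGFBI (2.25), TAGLN (2.22) and CCN2 (1.82). JUNB (0.92), PMEPA1 (0.56) and SKIL (0.31) rose less. PDGFB (-2.38) and ID1 (-0.34) fell. Of the other pathway genes 13 rose and 5 fell among 24 tested, with LTBP1 (2.44), THBS1 (1.78), ENG (1.17), FSTL3 (1.02), TGFBR3 (1.02) and ITGAV (1.01) higher, and ITGB6 (-2.50), SMAD1 (-1.55) and ACVR2A (-1.14) lower. Without low-resolution plate 1 the calls of SKIL (0.37, adjusted p = 0.0546 by edgeR), ITGB8 and SMURF1 were lost. TGFBR3 had opposite signs in the 2 comparisons. Both comparisons use the same cells, so their values are given side by side only.

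**Figure D5:**
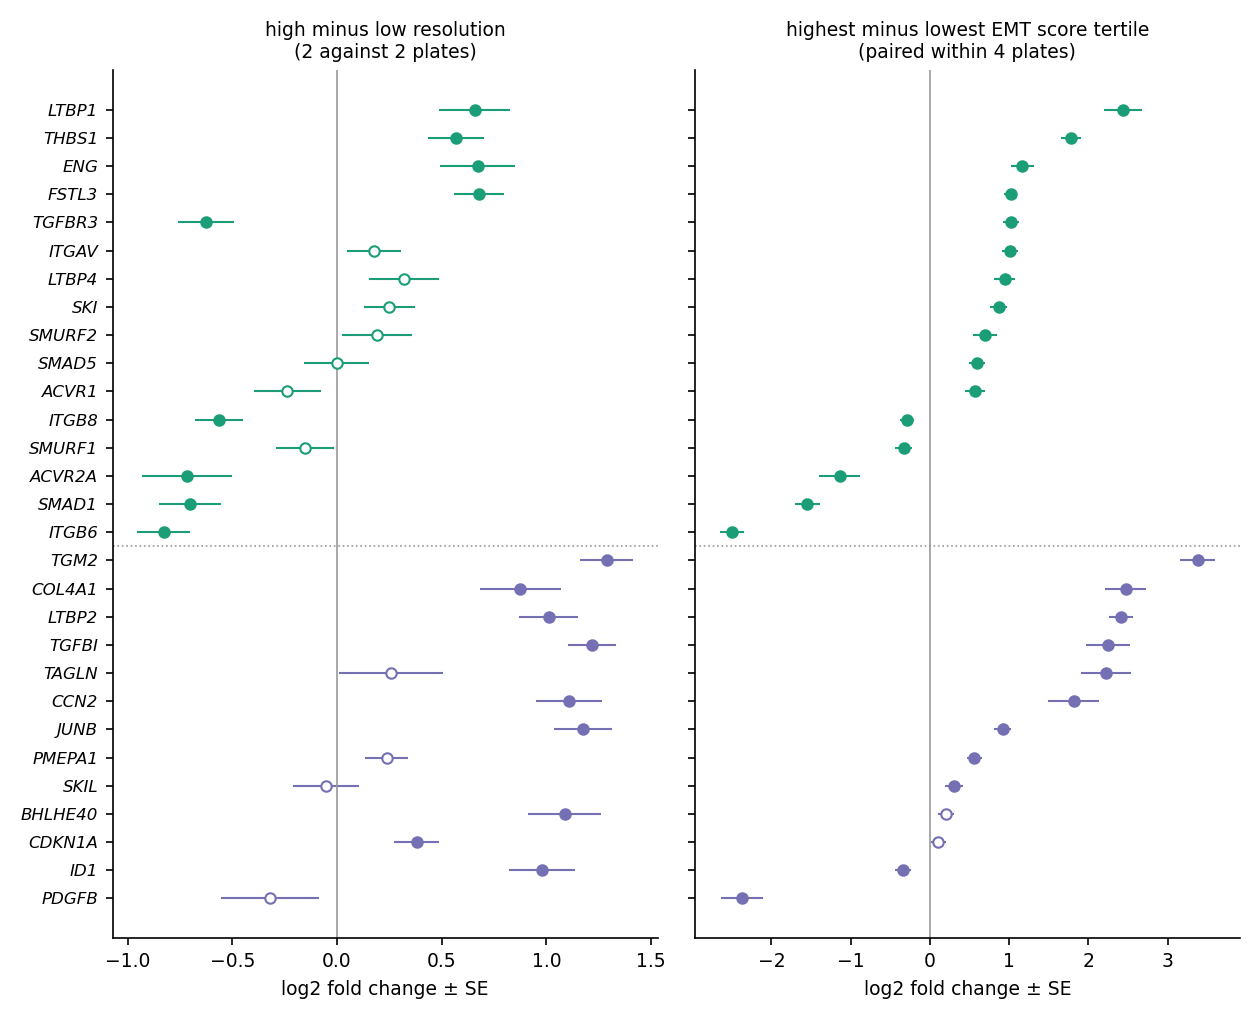
Log2 fold change ± SE of the 29 genes of the other pathway list (green, above the dotted line) and the target list (purple) that passed an adjusted p of 0.05 in either comparison, for high minus low resolution (left) and the highest minus the lowest EMT score tertile (right); filled points passed in that comparison. TGM2 is highest of these in both (1.29 and 3.38), ITGB6 is lowest in both (-0.83 and -2.50), and TGFBR3 changes sign (-0.62 and 1.02).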

How the data were processed

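Processing of the single-cell libraries followed the study where the files allowed it. The deposited values are expected counts: the authors mapped reads (the submitters' processing notes name STAR 2.7.3a, hg38 and Seurat 4), counted UMIs and corrected them for repeated use of 4096 possible UMIs. The correction could be inverted to whole UMIs. Cells were filtered as above, log-normalised to 10000, and scored for EMT by GSVA once per experiment, with 64 of 65 epithelial and 97 or 100 of 115 mesenchymal genes. Counts were summed by plate or by tertile, rounded and tested in edgeR 4.0.16 (TMM, filterByExpr, quasi-likelihood, Benjamini-Hochberg, 0.05) in R 4.3.3. Plate totals were 11709628 to 14992348 corrected UMI counts, spike-ins included, before filtering. On simulated sums with a dispersion of 0.01, near that of the data, the test recovered 90.5% (plates) and 93% (tertiles) of 200 genes changed 2-fold. With a dispersion of 0.05 it recovered 11.5% (plates) and 60% (tertiles), so a gene with more spread could be missed. Alternatives were DESeq2 1.42.0, other normalisation, filters, scores, depth and left-out plates. Named genes were the 10 genes, 4 EMT markers, the 2 lists where a gene passed or stood out in level, and the 3 nearest genes. A listed target gene and a nearest gene are not reported here. The members and lists were chosen with earlier results of these data known. Comparisons within tertiles were added after seeing the data. Whether reads were counted by strand is not given in the sources used here. The antisense rows INHBA-AS1 and TGFB2-AS1 held at most 9 and 6 UMIs per plate.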

Additional observations from a re-analysis of the deposited data

Results flagged for a closer look

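The change from the lowest to the highest EMT score tertile differed between the experiments for 7 named genes, by edgeR's interaction term at an adjusted p under 0.05. INHBA was the 1 member of the TGF-beta and activin gene group, with 0.79 (high minus low resolution, log2). LTBP1 (1.34) and TAGLN (1.90) rose more across tertiles at high resolution. TGFBI (-1.56), TGM2 (-1.21) and FST (-2.64) rose less there. CDH1 (-1.33), which is part of the score, fell more there. With a plate left out, the TGFBI call held each time, INHBA was lost without low-resolution plate 1, and LTBP1, TAGLN, TGM2, CDH1 and FST were lost without at least 2 of the plates, low-resolution plate 1 among them. Under DESeq2 none of the 5 genes with an adjusted p (INHBA, CDH1, LTBP1, TGFBI and TGM2) passed, and with the z-score INHBA did not. TGFBI had log2 changes of 2.77 and 3.604 at low and of 1.86 and 1.33 at high resolution, and FST of 2.59 and 3.30 against 0.23 and 0.12. Groups of 2 plates are too small for a test of single outlying samples.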

How the results depend on the processing

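INHBA and INHBB kept their direction and passed between the experiments under DESeq2, other size factors, no filter on low counts, no mitochondrial limit and each plate left out. Within EMT score tertiles, INHBA missed the threshold in the lowest (1 of the 9 genes tested passed there) and INHBB was not tested in the highest. Over all genes 1547 passed between the experiments, 982 to 1172 with a plate left out, 948 within the middle and 542 within the highest tertile, and 1270 within the lowest. Within the highest tertile SMAD3 passed as well. Between tertiles 4405 passed and 2623 in cells thinned to 10000 UMIs, where fewer genes could be tested. The interaction gave 328 genes, 62 under DESeq2, 89 to 259 with a plate left out, and 429 with a mean z-score in place of GSVA. The difference in log2 INHBA to INHBB ratio was 3.24, and 0.66 as a difference of mean log-normalised values per cell, which is another scale. The mean rho reached 0.3 for 2 genes, and for 1 (INHBB) after thinning.

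Some small changes turned direction without passing, and the cause was not tested. Between the experiments, among the 10 genes, the markers and the listed genes that passed, these were TGFB1 in the lowest tertile (-0.39), TGFB2 in the middle (0.11) and highest tertile (0.050) and with a plate left out (-0.086 to 0.048), TGFBR1 in the middle (0.053) and highest tertile (0.13) and with a plate left out (-0.17 to 0.072), SMAD4 in the middle tertile (-0.053) and with a plate left out (-0.080 to 0.29), EPCAM in the lowest tertile (0.32), ACVR2A in the highest (0.076) and LTBP1 in the lowest (-0.57). Of listed genes that did not pass over all cells, TAGLN (0.26) turned and passed in the lowest tertile (-1.24, adjusted p = 0.0389 by edgeR), and FST (0.62) was at 2.11 in the lowest, which passed (0.0328), and at -0.56 in the highest. Others turned without passing, such as PMEPA1 (-0.055) and ITGAV (-0.12) in the lowest and SKIL (0.099) in the middle. Between tertiles they were TGFBR2 with the z-score (-0.0069) and SMAD2 without the filter (-0.0078), the mitochondrial limit (-0.028), the plate term (-0.0093) or with a plate left out (-0.090 to 0.095).

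Plate numbers do not pair the experiments: deviations of same-numbered plates had a correlation of -0.024 over 12437 genes. With the replicate number as a block between the experiments 2023 genes passed, SMAD3 among them (-0.45, adjusted p = 0.0261), and the ratio difference was 3.24. Without the plate as a block between tertiles 2966 genes and 4 of the 10 passed, INHBA (adjusted p = 0.101) and TGFB2 (0.0569) being lost. Low counts of the gene left SMAD7 untested in the lowest tertile and INHBB in the highest.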
